A study of Rattus norvegicus with 2 samples.

Results

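The genes described here handle iron, heme and hemoglobin around the hepatocyte, and were taken as a named list of 10: Hamp, Tf, Tfrc, Tfr2, Fth1, Ftl1, Cp, Hpx, Hp and Hfe. They are not all plasma proteins, since Tfrc, Tfr2 and Hfe encode membrane proteins and Fth1 and Ftl1 the subunits of the ferritin store inside cells. Of the 10, 7 had at least 1 probe set annotated to that gene alone, of 14217 such genes on the array, and these 7 were covered by 10 probe sets. Every probe set listed for Tf, Fth1 and Ftl1, 4 in all, was also listed for other genes, so no value is given for them. Male rats of the outbred Wistar strain, aged 2 months and weighing 250 to 300 g, gave the liver RNA, which was measured on 2 Affymetrix rat expression arrays. The olive oil array was made from rats that had fasted for 18 h, received 5 ml of olive oil and were killed 4 h later. The dose is also stated as 16 ml per kg, which does not match 5 ml at the stated weights. The fasted array was made from rats that had fasted for 18 h and received no fat. No matching wait of 4 h or sham dose is stated for them in the labels used here. Time and dosing thus cannot be told apart from the oil. With 1 array per group and the number of rats behind each not given, every difference compares those arrays, and no test, p-value or standard deviation over animals is possible.

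The liver sets the amount of iron in blood plasma. It secretes hepcidin, the peptide product of Hamp, which binds the iron exporter ferroportin (Slc40a1) on gut cells and macrophages and causes its degradation, so that less iron enters the blood. Iron in plasma travels on transferrin and enters cells through the transferrin receptor of Tfrc, whereas the related receptor of Tfr2, together with Hfe and hemojuvelin (Hjv), lets the hepatocyte sense transferrin-bound iron and adjust Hamp through bone morphogenetic protein (BMP) signals. Inflammation raises Hamp by another route, from interleukin 6 through STAT3. Haptoglobin (Hp) and hemopexin (Hpx) capture hemoglobin and heme set free from red cells, and ceruloplasmin (Cp) is a copper-carrying oxidase that loads iron onto transferrin.

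The promoters of Hamp and Tfrc are shown because these were the members with the largest differences in signal between the arrays. Each line gives the 250 bases before the start of the gene, 5′ to 3′ on the gene's strand, from RefSeq's GRCr8 assembly of the rat. The Hamp stretch is chr1:95300272-95300521 and the Tfrc stretch chr11:81690319-81690568, both on the minus strand. Capitals mark matches to 3 motifs that were searched on both strands: GGCGCC, the core of the BMP response element of the human hepcidin promoter, TTCNNNGAA, a site for STAT proteins, and ACGTG, the core of the hypoxia response element.
Hamp: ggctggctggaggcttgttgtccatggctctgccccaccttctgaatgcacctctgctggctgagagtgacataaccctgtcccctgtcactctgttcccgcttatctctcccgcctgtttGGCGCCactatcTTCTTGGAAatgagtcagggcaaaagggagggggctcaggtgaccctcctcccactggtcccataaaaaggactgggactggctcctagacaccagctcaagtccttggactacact
Tfrc: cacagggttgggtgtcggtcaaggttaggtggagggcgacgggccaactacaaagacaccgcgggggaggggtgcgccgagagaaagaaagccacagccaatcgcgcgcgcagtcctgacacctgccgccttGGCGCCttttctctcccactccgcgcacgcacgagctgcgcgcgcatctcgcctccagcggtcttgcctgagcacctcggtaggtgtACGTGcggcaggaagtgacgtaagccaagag

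In Hamp, GGCGCC lay 129 to 124 bases and a TTCNNNGAA match, TTCTTGGAA, 117 to 109 bases before the start of the gene. In Tfrc, GGCGCC lay 118 to 113 bases and ACGTG 31 to 27 bases before the start. No 2 matches overlapped. Of 33469 promoter stretches of this length, 8.69% held GGCGCC, 7.67% TTCNNNGAA and 16.6% ACGTG. Among the 6 members with an entry in the promoter table, Tf, Tfr2, Cp and Hpx had no match to these letters in the stretch. By the gene bounds used here, the Cp stretch lay inside the gene and the Tfr2 stretch overlapped its start. A match describes letters and was not measured as a binding site.

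Median signals over 31042 probe sets were close, at 44.7 in the olive oil array and 42.5 in the fasted array. Beta-actin, whose 3′ to 5′ ratio reflects RNA integrity, had a ratio of 3.20 in the olive oil array and 2.63 in the fasted array. The GAPDH control had 1.34 in the olive oil array and 1.28 in the fasted array. Both ratios were higher in the olive oil array, and their part in the differences below was not tested. Hepatocyte markers were all measured, with 0 of 8 at least 1.5-fold apart. Among all measured genes, 9.44% were higher and 10.1% lower by that size. The markers' summed signal was 122893 in the olive oil array, against 119867 in the fasted array. They were bright, from Cps1 at 10739 to Serpina1 at 18920 in the olive oil array, and whether they were saturated was not tested. The brightest probe set stood for its gene, which was called measured if the average of its log2 signals lay at or above that of the median probe set, a signal of 41.4. All 7 members with a probe set of their own passed this filter, with signals above 41.4 on both arrays.

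Of the 7 measured members, 1 was at least 1.5-fold higher in the olive oil array, 0 were lower by that size and 6 lay in between. Among all 9209 measured genes, 9.44% were higher by 1.5-fold or more in the olive oil array and 10.1% were lower by as much. These were 869 and 931 genes; centring each array on its median gave 700 and 1168. The median log2 difference of the 7 members, olive oil minus fasted, was 0.03, and that of all measured genes was -0.01. The receptor gene Tfrc stood apart from the other members in size, the hormone gene Hamp came next, and the 5 others lay within 0.17 of 0 on the log2 scale. Over 2290 genes with more than 1 measured probe set, the pooled standard deviation between probe sets of the same gene was 0.35 on the log2 scale. This scatter between probe sets holds no variation between rats. The differences of those 5 members were smaller than this scatter.

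**Figure D1:**
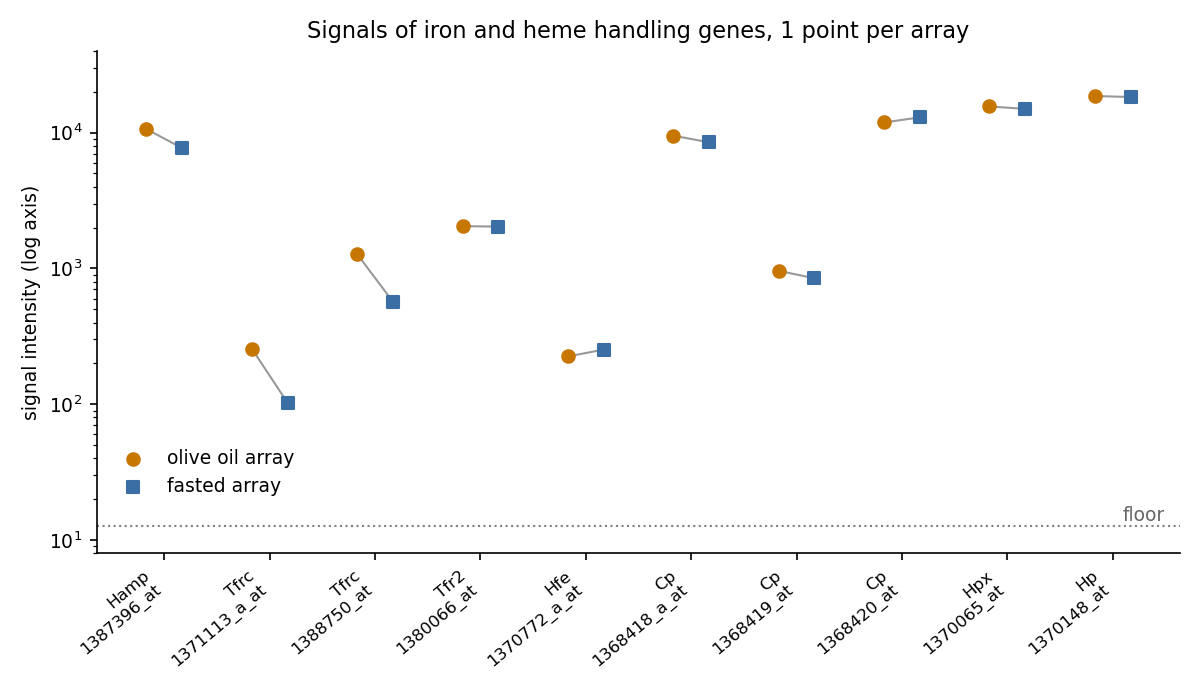
Signal intensity (log axis) of each of the 10 probe sets of 7 members, with the olive oil array as a circle left of the fasted array as a square, 1 value each; the dotted line is the floor of 12.8. Both Tfrc probe sets and that of Hamp were higher in the olive oil array, while the pairs of Tfr2, Hfe, Cp, Hpx and Hp lie nearly level.

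Among receptors, Tfrc, which takes iron-loaded transferrin into the cell, had the largest difference. Its brighter probe set had a signal of 1275 in the olive oil array, against 569 in the fasted array, 2.24-fold higher. The dimmer one had 257 in the olive oil array and 103 in the fasted array, 2.51-fold higher. The probe sets thus gave log2 differences of 1.16 and 1.33, closer to each other than the pooled scatter given above, and all signals were at least 8.02 times the floor applied to low values. At 2-fold, Tfrc was 1 of 7 members past the size, against 3.21% of all measured genes in that direction, and 191 of 9209 measured genes had a higher difference than Tfrc.

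Tfr2, the hepatocyte's own sensor of transferrin-bound iron, had nearly equal signals. Its probe set had a signal of 2049 in the olive oil array and 2031 in the fasted array, a log2 difference of 0.01. Hfe, the HLA-like protein that binds transferrin receptors and is mutated in human hereditary hemochromatosis, had 225 in the olive oil array and 253 in the fasted array, a log2 difference of -0.17. The Hfe probe set carries a suffix that Affymetrix uses for sets matching several transcripts of 1 gene. Each of these genes had 1 probe set, so that neither had a second to compare.

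Hamp, the hepcidin gene, was 1.38-fold higher in the olive oil array. Its signal was 10595 in the olive oil array, against 7694 in the fasted array, a log2 difference of 0.46, which is under the 1.5-fold size and rests on 1 probe set. Of the 9209 measured genes, 13.6% had a higher difference.

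**Figure D2:**
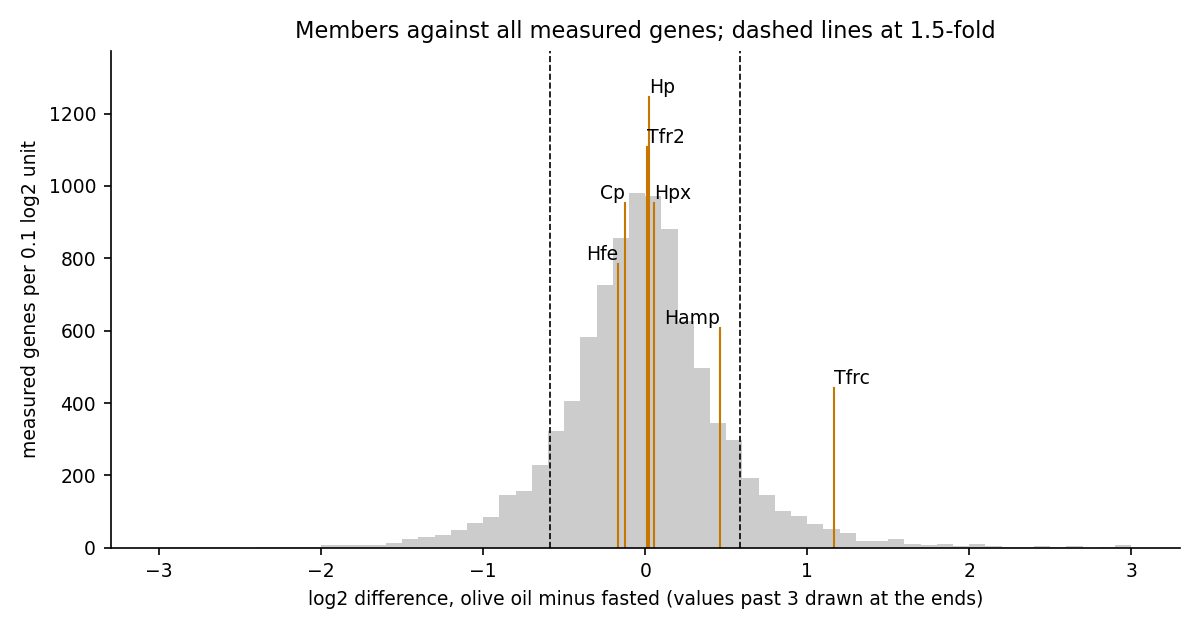
Histogram of log2 differences, olive oil minus fasted, over 9209 measured genes in steps of 0.1 (grey), with the 7 measured members as labelled lines whose height has no meaning and dashed lines at 1.5-fold. Tfrc lies at 1.16 and Hamp at 0.46, and the 5 others stand in the middle of the histogram between -0.17 and 0.06.

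The plasma carriers were nearly equal on the arrays. Hp, which binds free hemoglobin, had a signal of 18580.1 in the olive oil array and 18259 in the fasted array, 1.02-fold. Hpx, which binds free heme, had 15553 in the olive oil array and 14949 in the fasted array, 1.04-fold. These signals were high for the arrays, whose brightest probe sets reached 20497 in the olive oil array and 21843 in the fasted array, and whether they were saturated was not tested.

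Cp, the ferroxidase, had 3 probe sets with different signs. The brightest had 11863.5 in the olive oil array and 12933 in the fasted array, a log2 difference of -0.12. The second had 9484 in the olive oil array and 8477 in the fasted array, a log2 difference of 0.16. The dimmest had 961 in the olive oil array and 846 in the fasted array, a log2 difference of 0.18. The last 2 share 1 source sequence record, whereas the brightest has another, and whether the sets read different transcripts was not tested. No direction can be given for Cp, whose mean over the 3 probe sets was 0.07.

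Hp and Hpx are acute phase proteins of the rat, and other plasma proteins that go up or down in the acute phase were listed beside them. Of 17 measured genes of this list, 1 was at least 1.5-fold higher (5.88%, against 9.44% of all measured genes), 0 were lower by that size (against 10.1%) and 16 were within it. The 1 past 1.5-fold was the alpha-2-macroglobulin gene A2m, at 2965 in the olive oil array and 310.1 in the fasted array. Most genes of the list had high signals, such as Fgg at 20412 and Serpina1 at 18920 in the olive oil array. Whether these were saturated was not tested. The list's median log2 difference of 0.08 covers both kinds of protein. Of those that fall in the acute phase, Alb had a log2 difference of 0.07, Ttr of -0.01, Rbp4 of -0.08 and Ahsg of -0.13. The last 3 were the list's only negative values without centring. Centring the arrays on their medians lowered the list's median to 0.005, so signs this close to 0 depend on the scaling. The differences of Alb, Ttr, Rbp4 and Ahsg were smaller than the scatter of 0.35 between probe sets, and no direction is given for them. Among those known to go up, the largest differences after A2m were those of Serpina3n at 1.29-fold, Fgb at 1.23-fold and Apcs at 1.23-fold, named after their values were seen. Fga, a fibrinogen chain that was picked out after seeing its values, differed by 0.10 on the log2 scale by its brightest probe set and by 1.11 by its other.

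Among genes that control Hamp, Stat3 and Il6r of the interleukin 6 route were higher in the olive oil array and Il6st was level, and genes of the BMP route lay on both sides of 0. Of 23 measured genes of hepcidin control, 4 were at least 1.5-fold higher (17.4%, against 9.44% of all measured genes) and 1 was lower by that size (4.35%, against 10.1%), while 18 were within it. The list's median log2 difference was 0.04. Stat3, the factor that carries the interleukin 6 signal to the Hamp promoter, had 2254 in the olive oil array and 593 in the fasted array, 3.80-fold higher. Its brightest probe set differed by 1.93 and its other by 1.88 on the log2 scale. Il6r, the interleukin 6 receptor, had 1126 in the olive oil array and 570 in the fasted array, 1.97-fold higher. Il6st, the signalling subunit of that receptor, named after its values were seen, was level at 1375 in the olive oil array and 1354 in the fasted array, and its 3 other probe sets lay between -0.05 and 0.21 on the log2 scale. Socs3, a feedback target of STAT3 named after its values were seen, had a log2 difference of 0.04 on a dim probe set of 44.1 in the olive oil array and 42.9 in the fasted array.

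On the BMP side, the receptor gene Bmpr2 had 144 in the olive oil array and 77.1 in the fasted array, 1.87-fold higher. Id1, a direct target of BMP signals in liver, had 241 in the olive oil array and 142.5 in the fasted array, 1.69-fold higher. Smad7, another target and an inhibitor of the pathway, had a log2 difference of 0.06, and the ligand gene Bmp6 had 0.04 and -0.15 on its probe sets. The coreceptor gene Hjv had 1751 in the olive oil array and 2442 in the fasted array, a log2 difference of -0.48. Neo1, a receptor that binds hemojuvelin, had 99.7 in the olive oil array and 175.5 in the fasted array, 1.76-fold lower, with -0.41 on its other probe set. Tmprss6, the protease that removes hemojuvelin, had no probe set annotated to it alone, so no value is given for it.

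Among transporters that bring iron into the hepatocyte or let it out, Slc39a14 was higher and Slc39a8 and Slc40a1 lower in the olive oil array. Of 17 measured genes of iron transport and sensing, 2 were higher (11.8%, against 9.44% of all measured genes) and 3 lower (17.6%, against 10.1%) by 1.5-fold or more, and 12 were within that size. These shares rest on few genes and lie near those of all genes. The list's median log2 difference was 0.14. Slc39a14, the transporter ZIP14 that takes up iron not bound to transferrin, had 2733 in the olive oil array and 1179 in the fasted array, 2.32-fold higher, with 0.94 on the log2 scale on its other probe set. Slc40a1, ferroportin, had 766 in the olive oil array and 1182 in the fasted array, 1.54-fold lower. Its 2 further probe sets differed by -0.69 and -1.24 on the log2 scale. Tfrc and Slc39a14 were thus higher and Slc40a1 lower on every measured probe set of each, whereas Slc39a8 and Steap3, given below, were lower.

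Slc39a8, the related metal importer ZIP8, had 824 in the olive oil array and 1373 in the fasted array, 1.67-fold lower. Steap3, a reductase that acts on iron released from transferrin in endosomes, had 142 in the olive oil array and 273 in the fasted array, 1.93-fold lower. Lcn2, which binds iron-carrying siderophores, had 106 in the olive oil array and 55.4 in the fasted array, 1.92-fold higher. Lcn2 is also a neutrophil gene. Of 6 listed neutrophil markers, only 3 had a probe set of their own and 2 were measured. These 2 were at least 1.5-fold higher, against 9.44% of all measured genes. S100a9 had 253 in the olive oil array and 62.9 in the fasted array. S100a8 had 75.7 in the olive oil array and 32 in the fasted array, the latter under the filter signal of 41.4. The summed signal of 3 represented neutrophil markers was 340 in the olive oil array and 102 in the fasted array, with Csf3r under the floor on both, and their part in the Lcn2 difference was not tested.

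The proteins that sense iron inside the cell bind iron-responsive elements in RNA, stabilising the Tfrc message and holding back ferritin translation when iron is low. Their genes were within 1.5-fold. Aco1 had 1304 in the olive oil array and 1373 in the fasted array, a log2 difference of -0.07. Ireb2 had 415.5 in the olive oil array and 306 in the fasted array, a log2 difference of 0.44. Ncoa4, which delivers ferritin to lysosomes, had 0.36, and Slc11a2, the endosomal iron transporter DMT1, had -0.04, with 0.17 on its other probe set.

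**Figure D3:**
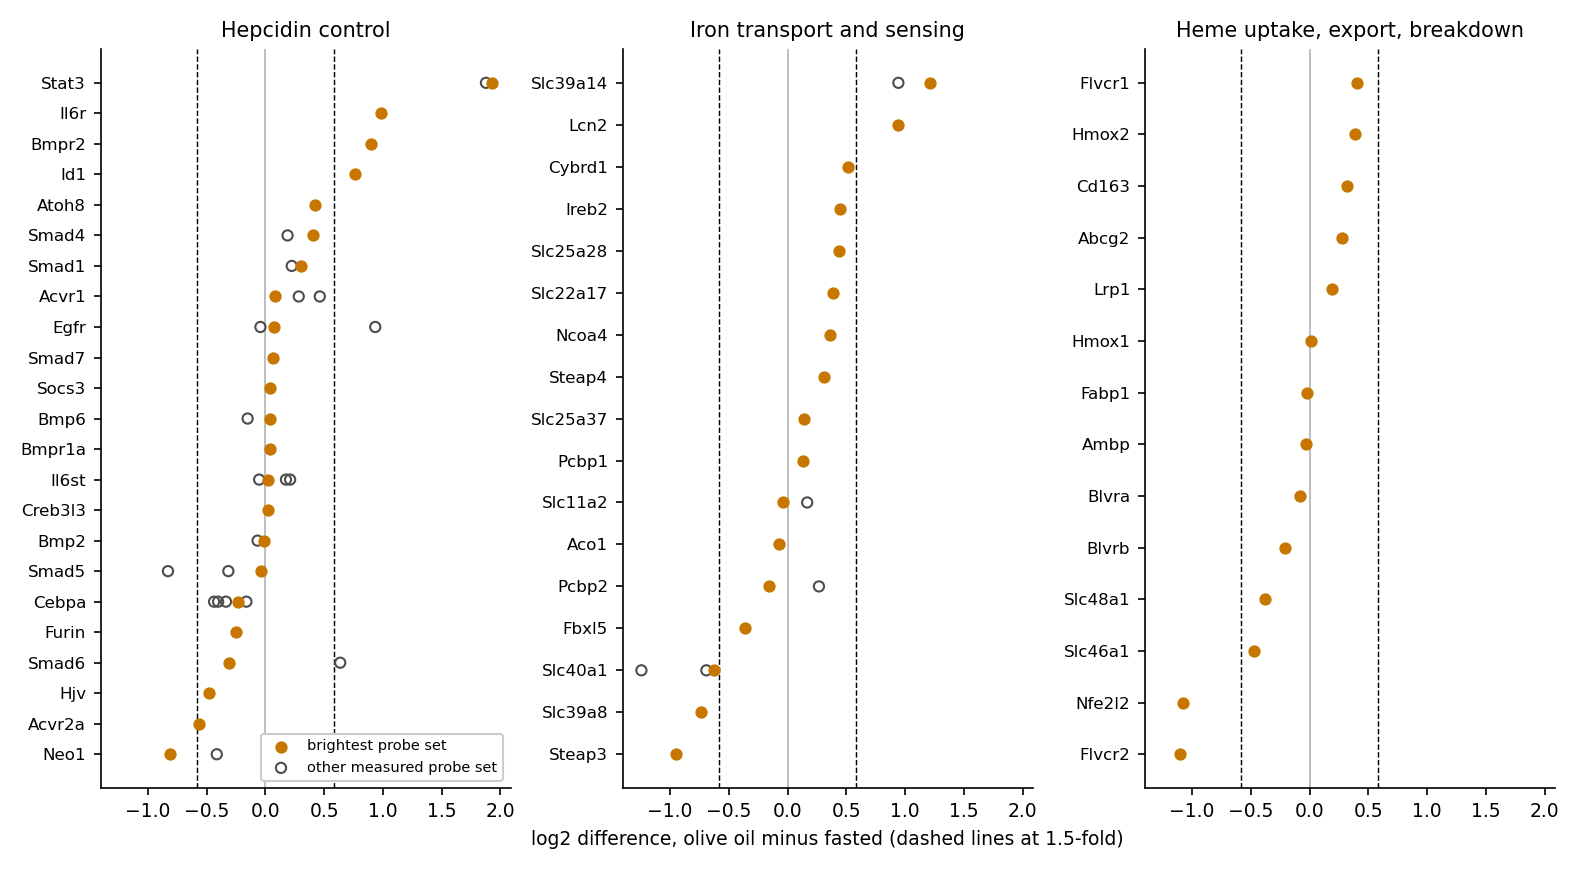
Log2 difference, olive oil minus fasted, of each measured gene of 3 lists, with the brightest probe set filled, other measured probe sets open and dashed lines at 1.5-fold. Stat3 (1.93) and Slc39a14 (1.21) head their lists on all of their probe sets, and Slc40a1 lies at -0.63 or lower on each of its probe sets.

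Hmox1, which breaks heme down, was level between the arrays, and Nfe2l2, an inducer of it, was lower in the olive oil array. Of 14 measured genes of heme uptake, export and breakdown, 0 were higher (against 9.44% of all measured genes) and 2 lower (14.3%, against 10.1%) by 1.5-fold or more, and 12 were within that size, which is near the background for so few genes. The median of the list was -0.02 on the log2 scale. Hmox1, the inducible heme oxygenase, had 251 in the olive oil array and 249 in the fasted array. Lrp1, the receptor for heme bound to hemopexin, had a log2 difference of 0.19, and Cd163, the macrophage receptor for hemoglobin bound to haptoglobin, 0.32. Nfe2l2, the transcription factor NRF2, which induces Hmox1 and the ferritins, had 843 in the olive oil array and 1779 in the fasted array, 2.11-fold lower on 1 probe set. Flvcr2, a transporter of the heme exporter's family, had 28.8 in the olive oil array and 61.9 in the fasted array. Its log2 difference of -1.10 was -0.51, inside 1.5-fold, with the floor raised to the 50th percentile.

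Whole liver holds other cells with iron roles, and less RNA per cell of a type cannot be told apart here from fewer cells of it. Erythroid cells carry much transferrin receptor. Their 6 represented markers had a summed signal of 9109 in the olive oil array and 9403 in the fasted array, to which the hemoglobin gene Hbb gave 8851.5 in the olive oil array and 9091 in the fasted array, with Klf1 and Epb42 under the floor on both arrays. The 2 measured ones were within 1.5-fold, Hbb at -0.04 and Alas2, the erythroid enzyme of heme synthesis, at -0.42 on the log2 scale. The Hbb probe set carries a suffix that Affymetrix uses for sets whose probes can match other sequences. Without suffixed sets the list's median was -0.42, against -0.23 with them. Of the dim ones, Ahsp was at 0.09 and Slc4a1 at 0.59, with 30.2 in the olive oil array and 20.1 in the fasted array. The markers thus lay on both sides of 0, and their part in the Tfrc difference was not tested. Macrophages are a main site of Slc40a1. Of 12 listed macrophage markers, the 9 with a probe set of their own were all measured. Their summed signal was 7149 in the olive oil array and 6553 in the fasted array. Of the 9, 0 were at least 1.5-fold apart, against 9.44% of all measured genes higher and 10.1% lower. They ranged from Adgre1 at -0.39 to C1qc at 0.48 on the log2 scale, and their part in the Slc40a1 difference was not tested.

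**Figure D4:**
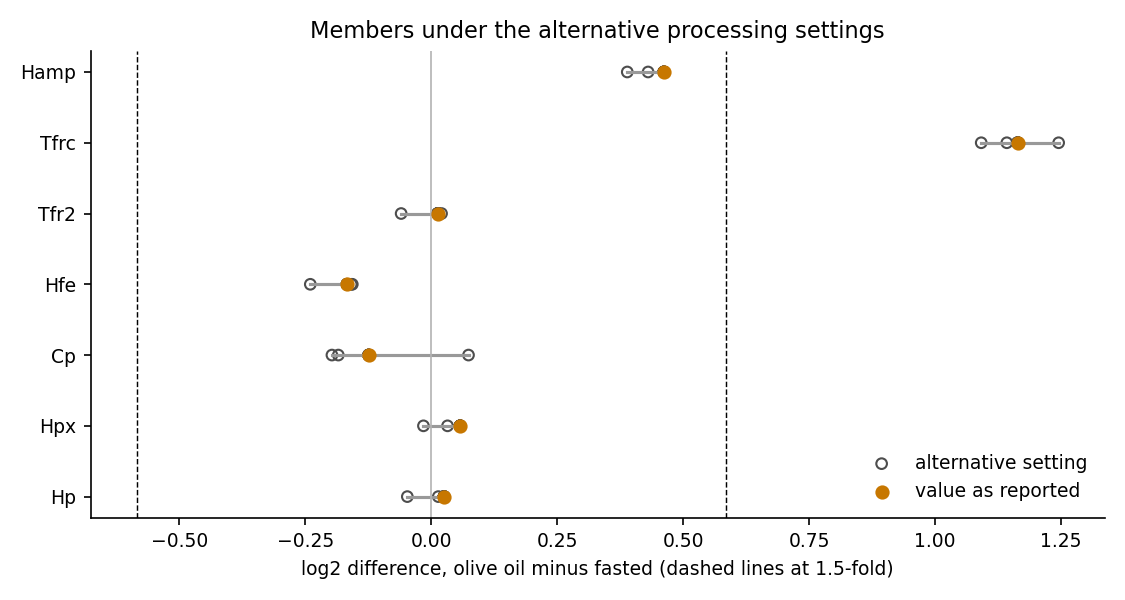
Log2 difference, olive oil minus fasted, of each measured member as reported (filled) and under up to 9 alternative processing settings (open), with a line over their range and dashed lines at 1.5-fold. Tfrc stays between 1.09 and 1.25 and Hamp between 0.39 and 0.46, whereas the ranges of Tfr2, Cp, Hpx and Hp reach both sides of 0.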

How the data were processed

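Liver RNA was labelled with biotin and hybridized to 2 arrays, grouped by the samples' titles. The authors deposited linear signal intensities, 1 for each probe set on each array, made with Affymetrix Expression Console per the submitters' processing notes. Which algorithm, scaling target and filters were chosen there stays not given in the sources used here. With 2 arrays, their number limits the precision.

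After 57 control probe sets were set aside, signals under the 25th percentile (12.8) were raised to it and log2 was taken, with no further normalization. Probe sets with 1 annotated gene (20826, against 436 with several and 9780 with none listed) were named through gene IDs, of which 20758 were found in a RefSeq table of GRCr8; the platform annotation can be old. A gene's measured state and brightest probe set are defined in the results. A fixed fold of 1.5 took the place of a test.

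The members and the 5 other gene lists were chosen with earlier results of these data known. Named genes were all members, up to 6 genes per list at least 1.5-fold apart, and 15 further genes whatever their change. Of these 15, Tmprss6 had no probe set of its own. Other named genes are marked. The functions were tested on simulated data. Python 3.11.15, numpy 2.4.6, pandas 2.3.3 and matplotlib 3.10.9 were used.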

Additional observations from a re-analysis of the deposited data

How the results depend on the processing

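The count of members at least 1.5-fold higher (1) and lower (0) was the same under all 9 alternative settings and at 2-fold. Over these settings Tfrc ranged from 1.09 to 1.25 and Hamp from 0.39 to 0.46 on the log2 scale. With the arrays centred on their medians, which lowered the median of all measured genes by 0.07, Tfr2 was at -0.06, Hp at -0.05 and Hpx at -0.02, and with the mean over probe sets Cp was at 0.07, so that no direction can be given for these 4. Hfe had no value without probe sets of shared-transcript suffixes. The number of measured genes at least 1.5-fold higher and lower, 869 and 931, was 1821 and 1766 with no filter on dim probe sets, 386 and 409 with a filter at the 75th percentile, and 296 and 269 at 2-fold. The higher share of these calls was 48.3%, and 37.5% with centring (700 and 1168). The settings were applied to the other lists after seeing the data. In the hepcidin control list, genes at least 1.5-fold lower numbered 2 with centring and 0 with the filter at the 75th percentile, against 1. Genes of that list at least 1.5-fold higher numbered 3 with that filter or without shared-transcript suffixes, against 4. In the iron transport list, genes at least 1.5-fold higher numbered 1 with that filter, against 2. In the heme list, genes at least 1.5-fold lower numbered 1 with that filter or the floor at the 50th percentile, against 2. In the acute phase list, genes at least 1.5-fold higher numbered 2 with the mean over probe sets or without shared-transcript suffixes, against 1. In the erythroid list, 1 (Slc4a1) was at least 1.5-fold higher with no filter, against 0. Of the named list genes past 1.5-fold, Flvcr2 alone fell inside it under a setting that gave it a value, the higher floor. Bmpr2, Neo1, Lcn2 and Flvcr2 had no value with the filter at the 75th percentile, and Id1 had none without shared-transcript suffixes. No paired analysis was possible because each group was 1 array.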
